A study of Rattus norvegicus with 16 samples.

Results

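Plasma carriers and acute phase proteins are secreted by hepatocytes, and 10 of their genes were listed for rat liver: Alb, Afm, Ttr, Tf, Hp, Hpx, Cp, Crp, A2m and Itih3. Each gene was represented by its brightest array row with exactly 1 gene symbol in the annotation, which gave 9 measured genes of 13215 genes with a row of their own. Tf, transferrin, shares its row with another gene and was dropped. The livers came from 16 male Sprague Dawley rats, 1 Affymetrix Rat Exon 1.0 ST array per animal, in 4 groups of 4. The groups were fed rats, rats fasted to phase 2 of fasting (P2), rats fasted to phase 3 (P3), and rats fasted to phase 3 and then re-fed, with 2 days of food (P3r2). Prolonged fasting is divided into phases by fuel use: fat is burned and protein spared in the second, and protein breakdown climbs in the third. The sources used here give neither the age of the animals nor the length of the fasts, and name no agent or transgene.

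Plasma proteins of this kind fall into carriers, scavengers and reactants. Albumin, afamin and transthyretin carry fatty acids, vitamin E and thyroid hormone with retinol-binding protein. Haptoglobin, hemopexin and ceruloplasmin bind free hemoglobin, free heme and copper. C-reactive protein, alpha-2-macroglobulin and the heavy chain Itih3 belong to the acute phase and protease-binding proteins. During inflammation interleukin-6 acts through its receptor and the transcription factor STAT3, together with C/EBP factors and glucocorticoids, to raise the positive reactants, while albumin and transthyretin, negative reactants, go down. In the rat, alpha-2-macroglobulin is the classic strongly induced reactant, whereas C-reactive protein is made constitutively. Transthyretin and albumin in plasma are also used as clinical markers of protein nutrition.

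Values are log2 signals, so that 1 unit is a doubling, with the base inferred from the range of the table (0.84 to 13.63). Each change is a difference of log2 group means ± its standard error, from limma fitted over all 18885 rows, and "called" means a Benjamini-Hochberg adjusted p below 0.05 over these rows, two-sided. Arrays correlated at 0.966 to 0.992 within groups, with medians between 4.34 and 4.46. The arrays fed 2, P2 4 and P3 3 had the narrowest spread of values (SD 2.12, 2.14 and 2.18 log2 units) and the lowest array weights (0.39, 0.41 and 0.38), and they recur below. All 7 measured hepatocyte markers averaged between 11.37 and 13.31 in P3 livers and between 12.03 and 13.37 in fed livers, while the neutrophil marker S100a8 averaged 2.12 in P3 and 2.05 in fed livers. Of the 9 genes, 6 averaged 12 or more, close to the top of the scale, where arrays can saturate, which was not tested. Rows are not compared with each other in level.

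At phase 3 a part of this group was lower than in fed liver: 5 of 9 genes fell, Afm, A2m, Cp, Ttr and Crp, and 0 rose. Over all rows tested 19.3% were called, 8.06% lower and 11.3% higher, and over the 63 rows with a mean of 12 or more 30.2% were called lower. The median change of the 9 genes was -0.41, against 0.03 over all rows and -0.13 over the 63 bright rows. Only 6 of the 9 genes are among the bright rows, and of the genes called lower only Ttr and Crp are. Afm, Cp and A2m averaged 10.23, 11.4 and 6.16, so the bright rows are no matched reference for the 9 as a set. Alb, Hp, Hpx and Itih3 were not called. The P3 and fed arrays did not overlap for 4 of the 9 genes, against 19.6% of all rows. Signal in a piece of liver cannot tell fewer cells of a type from less RNA per cell.

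**Figure D1:**
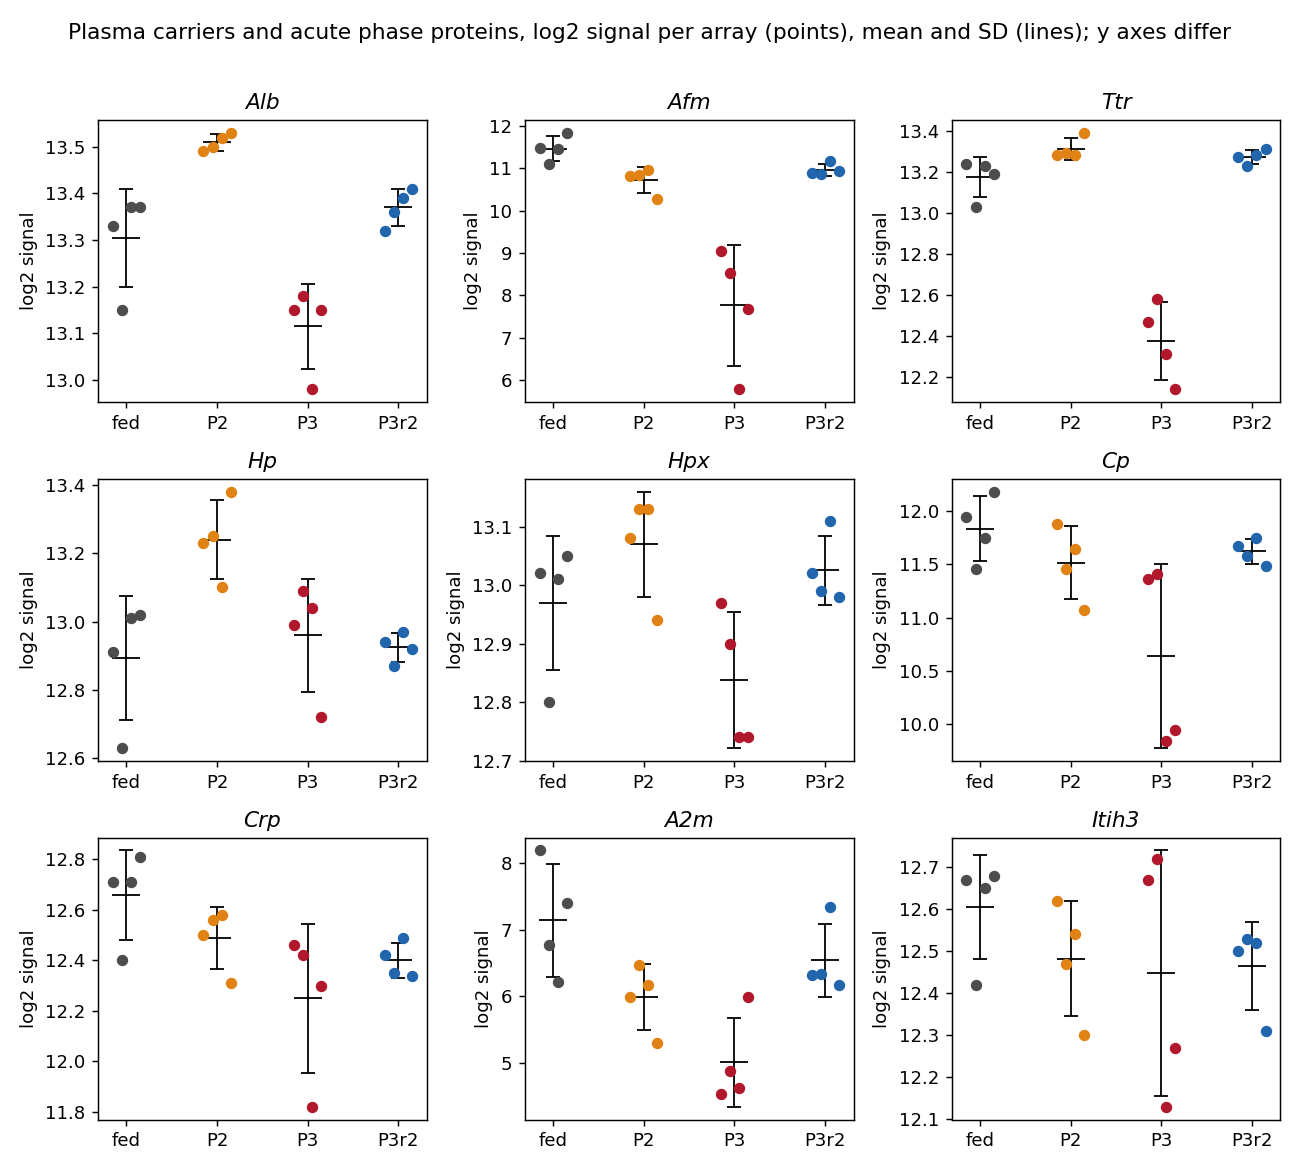
Log2 signal of the 9 measured genes in each of the 16 arrays (points, 4 per group), with the group mean and SD (lines), y axes differing between panels. Afm, Ttr, Cp and A2m were lower in all 4 P3 arrays than in any fed array, and the P3r2 arrays overlap with the fed arrays for every gene.

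Among the carriers, transthyretin (Ttr, transcript cluster 7168279) was lowest at phase 3. Its signal was 13.24, 13.03, 13.23 and 13.19 in fed livers, 13.28, 13.29, 13.28 and 13.39 in P2 livers, 12.47, 12.58, 12.31 and 12.14 in P3 livers, and 13.27, 13.23, 13.28 and 13.31 in P3r2 livers. All P3 arrays lay below all other arrays, with no overlap. Ttr fell by 0.80 ± 0.10 in P3 against fed livers, or 1.74-fold (limma adjusted p = 2.4e-05), and by 0.93 ± 0.10 in P3 against P2 livers (limma adjusted p = 8.9e-06). It rose by 0.90 ± 0.10 in P3r2 against P3 livers (limma adjusted p = 8.3e-06). In P2 against fed livers the change was 0.14 ± 0.10 (95% interval -0.07 to 0.35) and was not called. The order of the means was P2, P3r2, fed and P3, and the P3 level was called against each of the other groups, while P2, P3r2 and fed were not called against each other where compared.

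Afamin (Afm, transcript cluster 7123961), a vitamin E binding relative of albumin, had the widest range of group means, 3.71 log2 units. Its signal was 11.48, 11.11, 11.45 and 11.84 in fed livers, 10.81, 10.85, 10.97 and 10.28 in P2 livers, 9.05, 8.53, 5.78 and 7.68 in P3 livers, and 10.88, 10.86, 11.17 and 10.95 in P3r2 livers. The P3 livers were all lowest and were far apart from each other (SD 1.44, against 0.30 in fed livers), with P3 3 at the bottom. Afm fell 13.1-fold in P3 against fed livers (-3.71 ± 0.48, limma adjusted p = 3.6e-05), and the change was -3.05 without P3 3. Without that array the change was also smaller against P2 livers (-2.31) and between P3r2 and P3 livers (2.54). With all arrays Afm was 7.83-fold lower in P3 than in P2 livers (-2.97 ± 0.48, limma adjusted p = 0.00031) and 9.21-fold higher in P3r2 than in P3 livers (3.20 ± 0.48, limma adjusted p = 0.00016). In P2 livers all 4 arrays were below all fed arrays, but the change of -0.74 ± 0.48 was not called (limma adjusted p = 0.32), and in a fit of these 2 groups alone the adjusted p was 0.049.

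Albumin (Alb, transcript cluster 7123973), the main carrier of fatty acids in plasma, moved within a narrow band. Its signal was 13.33, 13.15, 13.37 and 13.37 in fed livers, 13.49, 13.50, 13.52 and 13.53 in P2 livers, 13.15, 13.18, 12.98 and 13.15 in P3 livers, and 13.32, 13.36, 13.39 and 13.41 in P3r2 livers. The P2 livers stood above all others and the P3 livers below all others except fed 2, which lay at 13.15. Alb fell by 0.39 ± 0.08 in P3 against P2 livers, or 1.31-fold (limma adjusted p = 0.0024), a call kept under all 29 alternative settings. It was higher in P3r2 than in P3 livers by 0.26 ± 0.08 (limma adjusted p = 0.041), a call lost under 18 of 29 settings. Against fed livers the change was -0.19 ± 0.08 in P3 (limma adjusted p = 0.14) and 0.20 ± 0.08 in P2 (limma adjusted p = 0.11). The P3 change was called after quantile normalization (-0.32, adjusted p = 0.0062) and with the length trend taken out (-0.33, adjusted p = 0.0071), and the P2 change with array spread as a covariate (0.25, adjusted p = 0.045).

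Promoter sequences from RefSeq (GRCr8, 250 bases before to 50 after the start) matched 6 of the 9 genes by symbol, and Afm, Hp and A2m had none. They are shown for Ttr, Alb and Cp, which were called in comparisons with P3, and for Hpx, which was not. Both strands were searched for TTCNNNGAA (STAT), TTGCNNAA (C/EBP), GTTAAT (HNF1) and ACANNNTGT (glucocorticoid receptor), and capitals mark every match.
Ttr, chr18:12218508-12218807, plus strand: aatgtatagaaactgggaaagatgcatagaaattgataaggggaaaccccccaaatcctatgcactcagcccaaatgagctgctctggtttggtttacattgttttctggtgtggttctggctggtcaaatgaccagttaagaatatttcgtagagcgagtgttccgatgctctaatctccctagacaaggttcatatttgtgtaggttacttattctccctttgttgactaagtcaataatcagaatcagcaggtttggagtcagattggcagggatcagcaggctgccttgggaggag
Alb, chr14:17906930-17907229, minus strand: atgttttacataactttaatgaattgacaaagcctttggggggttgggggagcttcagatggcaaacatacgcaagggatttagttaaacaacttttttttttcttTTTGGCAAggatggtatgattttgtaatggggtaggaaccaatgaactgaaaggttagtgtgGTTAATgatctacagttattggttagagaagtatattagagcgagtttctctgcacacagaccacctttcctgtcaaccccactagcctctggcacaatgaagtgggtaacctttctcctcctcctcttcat
Cp, chr2:104368420-104368719, plus strand: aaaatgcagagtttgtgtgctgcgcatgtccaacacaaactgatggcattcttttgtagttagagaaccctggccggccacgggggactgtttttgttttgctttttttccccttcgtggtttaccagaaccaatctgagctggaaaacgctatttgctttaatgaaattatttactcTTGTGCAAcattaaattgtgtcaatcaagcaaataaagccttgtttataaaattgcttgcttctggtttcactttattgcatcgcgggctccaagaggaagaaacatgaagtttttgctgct
Hpx, chr1:169352106-169352405, minus strand: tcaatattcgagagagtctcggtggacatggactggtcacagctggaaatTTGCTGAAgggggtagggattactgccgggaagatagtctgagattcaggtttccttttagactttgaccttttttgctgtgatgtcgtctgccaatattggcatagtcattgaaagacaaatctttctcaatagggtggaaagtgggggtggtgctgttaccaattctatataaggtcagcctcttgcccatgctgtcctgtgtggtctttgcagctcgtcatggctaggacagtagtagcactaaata
The C/EBP letters occurred in 3 of the 6, Alb, Cp and Hpx, starting -144, -72 and -200 bases from the start. They are found in 10.6% of 33465 promoters of the same length. Ttr, Crp and Itih3 held no match to any of the motifs. The HNF1 letters occurred in Alb, starting at -82, against 7.44% of promoters. The STAT letters (8.87% of promoters) and the glucocorticoid receptor letters (6.85%) occurred in 0 of the 6. The 2 matches in Alb did not overlap. These matches describe the letters in the window and no binding was measured.

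Among the scavengers, ceruloplasmin (Cp, transcript cluster 7192307), the copper-carrying ferroxidase, split the P3 livers. Its signal was 11.94, 11.46, 11.75 and 12.18 in fed livers, 11.88, 11.46, 11.64 and 11.07 in P2 livers, 11.36, 11.41, 9.84 and 9.95 in P3 livers, and 11.67, 11.58, 11.75 and 11.48 in P3r2 livers. P3 3 and P3 4 were low, while P3 1 and P3 2 were just under the lowest fed array. Cp fell by 1.20 ± 0.32 in P3 against fed livers (2.29-fold, limma adjusted p = 0.013), and the change was -0.96 (adjusted p = 0.052) without P3 4 and -0.93 (adjusted p = 0.043) without P3 3. It was higher in P3r2 than in P3 livers by 0.98 ± 0.32 (limma adjusted p = 0.042), a call lost under 15 of 29 settings, with an adjusted p of 0.14 without P3 3 or P3 4. In P3 against P2 livers the change of -0.87 ± 0.32 was not called (limma adjusted p = 0.061).

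Haptoglobin (Hp, transcript cluster 7185316), which binds free hemoglobin, was the 1 gene called in P2 against fed livers. Its signal was 13.23, 13.25, 13.10 and 13.38 in P2 livers, against 12.91, 12.63, 13.01 and 13.02 in fed livers. Every P2 array was above every fed array. The rise of 0.35 ± 0.11 (1.28-fold, limma adjusted p = 0.0495) sat at the threshold and was lost under 22 of 29 settings. Over all rows, 12.7% were called in this comparison, 6.13% higher and 6.58% lower, and 15.9% of the 63 bright rows were higher. In P3 livers Hp was 12.99, 13.09, 13.04 and 12.72 and in P3r2 livers 12.94, 12.87, 12.97 and 12.92, and neither group was called against fed. For 4 of the 9 genes, Alb, Afm, Ttr and Hp, the P2 and fed arrays did not overlap, against 19.2% of all rows. The Hp changes against fed livers were small in P3 and P3r2 livers (0.07 ± 0.11 and 0.03 ± 0.11).

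Hemopexin (Hpx), which binds free heme, was called in none of the 5 comparisons by limma with the values as deposited. After quantile normalization it was called lower in P3 than in fed livers (-0.32, adjusted p = 0.0076) and higher in P3r2 than in P3 livers (0.32, adjusted p = 0.0069). With the length trend taken out it was called lower in P3 than in fed (-0.29, adjusted p = 0.023) and P2 livers (-0.27, adjusted p = 0.034), and with array spread as a covariate it was called lower in P3 than in P2 livers (-0.30, adjusted p = 0.012). As deposited, its group means ran from 12.84 in P3 to 13.07 in P2 livers, and its lowest unadjusted p was 0.024, in P3 against P2 livers (-0.23 ± 0.09). The 2 lowest Hpx values among P3 livers, 12.74 each, were again P3 3 and P3 4.

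Among the reactants, alpha-2-macroglobulin (A2m, transcript cluster 7258100), a broad protease trap, varied most among fed animals (SD 0.85). Its signal was 8.19, 6.77, 6.21 and 7.40 in fed livers, 5.99, 6.47, 6.16 and 5.30 in P2 livers, 4.53, 4.88, 4.62 and 5.98 in P3 livers, and 6.31, 6.33, 7.34 and 6.16 in P3r2 livers. The P3 arrays were below all fed and all P3r2 arrays, and here P3 4 was the highest of the P3 group. The other P3 values lay close to the array medians (4.34 to 4.46), so the size of folds against P3 livers is uncertain. A2m fell by 2.14 ± 0.42 in P3 against fed livers (4.41-fold, limma adjusted p = 0.0014), a call kept under all 29 settings. It was 2.90-fold higher in P3r2 than in P3 livers (1.54 ± 0.42, limma adjusted p = 0.016), and without P3r2 3 the change was 1.27 (adjusted p = 0.06). In P2 against fed livers it was -1.17 ± 0.42 and not called (limma adjusted p = 0.077), with an adjusted p of 0.035 without fed 3.

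C-reactive protein (Crp) and Itih3, a heavy chain of the inter-alpha-trypsin inhibitor that binds hyaluronan, moved within a narrow band. Crp was 12.46, 12.42, 11.82 and 12.30 in P3 livers, against 12.71, 12.40, 12.71 and 12.81 in fed livers. The 2 groups overlapped at fed 2, and P3 3 lay lowest. The fall of 0.41 ± 0.14 (1.33-fold, limma adjusted p = 0.046) was lost under 17 of 29 settings and was -0.26 (adjusted p = 0.14) without P3 3. Itih3 was called in none of the 5 comparisons, with changes between -0.16 ± 0.13 in P3 against fed livers and 0.02 ± 0.13 in P3r2 against P3 livers, and P3 3 and P3 4 were its 2 lowest P3 values, 12.13 and 12.27.

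Between the fasting phases, 3 of the 9 genes were lower in P3 than in P2 livers, Ttr, Afm and Alb, and 0 were higher, where 22.0% of all rows were called, 13.5% higher, and 8.53% of all rows and 39.7% of the 63 bright rows were called lower. All 9 changes were negative, with a median of -0.39 against -0.03 over all rows, and the arrays did not overlap for 4 of 9 genes, against 21.9% of rows. After 2 days of re-feeding 5 genes were higher than in P3 livers, Afm, A2m, Cp, Ttr and Alb, and 0 were lower, where 18.4% of all rows were called, 7.93% lower, and 10.5% of all rows and 28.6% of the bright rows were higher. The arrays did not overlap for 6 of 9 genes, against 22.8% of rows. The median was 0.26 against -0.03 over all rows. Of the genes called in these comparisons only Alb and Ttr are bright rows, so the bright shares are no matched reference for Afm, A2m and Cp. Because these comparisons share the P3 arrays, low values in P3 enter all of them.

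No gene of the group was called between re-fed and fed livers. In P3r2 against fed livers limma called 0 of 9 genes, with 0 at an unadjusted p below 0.05, where 2.72% of all rows were called, 2.21% higher and 0.514% lower. The arrays overlapped for all 9 genes, while they did not for 12.5% of rows. The changes ran from -0.61 ± 0.42 for A2m (95% interval -1.49 to 0.28) to 0.10 ± 0.10 for Ttr (-0.11 to 0.31). Crp changed by -0.26 ± 0.14 (-0.55 to 0.03), was negative under all 29 settings, and was called lower under 2 of them. For Afm the interval was -1.52 to 0.51, so that for A2m and Afm a lower level after re-feeding was neither shown nor bounded closely with 4 arrays per group.

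**Figure D2:**
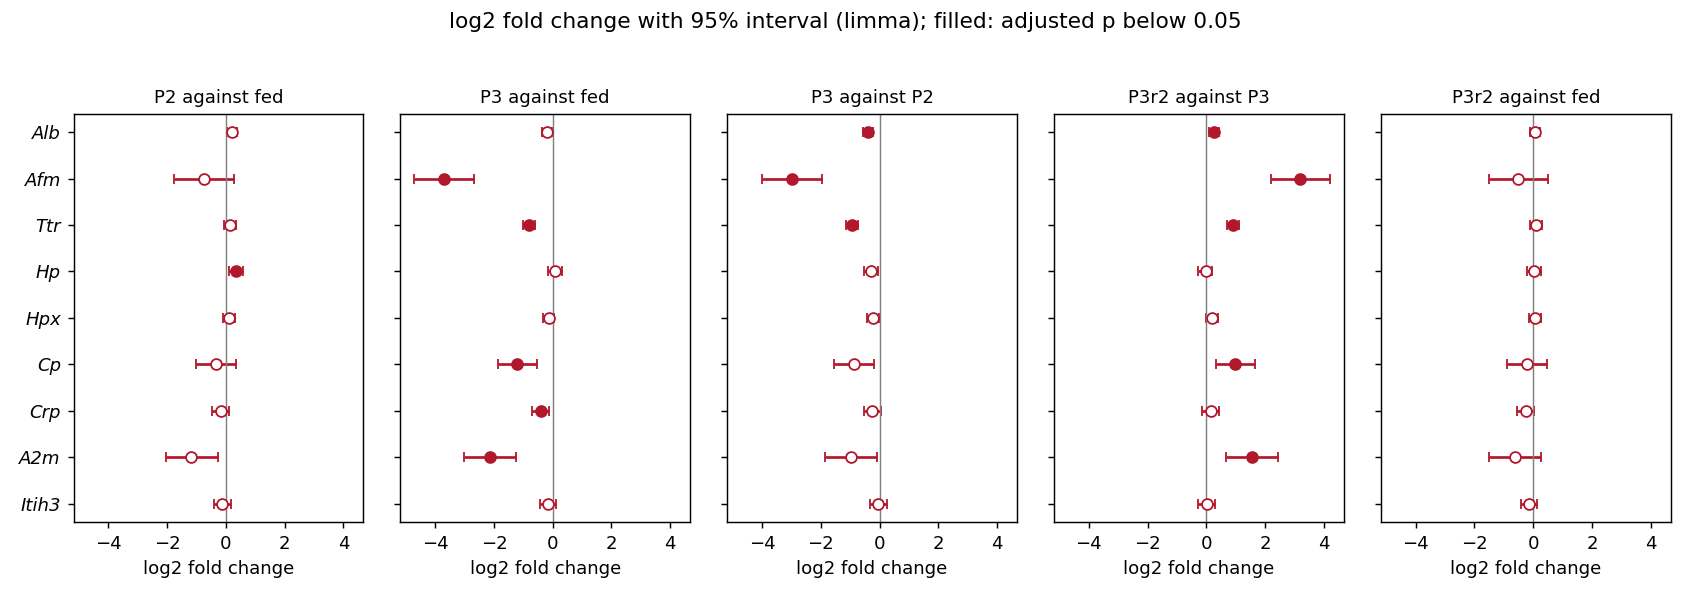
Log2 fold change of each of the 9 genes in 5 comparisons (points) with the 95% interval of the limma fit (bars), filled where the adjusted p was below 0.05. Falls of Afm, A2m, Cp, Ttr and Crp stand in P3 against fed, and no point is filled in P3r2 against fed.

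Other proteins of the plasma showed which neighbours of the 9 genes moved at phase 3. Of 16 other measured carriers, 8 fell and 1 rose in P3 against fed livers, with a median of -0.45 against 0.03 over all rows. Among all rows tested, 8.06% were called lower and 11.3% higher in this comparison. Serpina6, the corticosteroid-binding globulin, fell by 5.99 ± 0.33 and Igfals, which holds insulin-like growth factors in the circulation, fell by 4.58 ± 0.67. Igfbp2, another carrier of these factors, rose by 3.34 ± 0.27. Gc, the vitamin D carrier and a relative of albumin and afamin, was 12.72 in P3 and 12.85 in fed livers and was not called (-0.13 ± 0.09), whereas it fell by 0.34 ± 0.09 in P3 against P2 livers. Hrg, which binds heme and metal ions, fell by 2.00 ± 0.52. Serpina7, the thyroxine-binding globulin and with Ttr a carrier of thyroid hormone, was higher in P2 than in fed livers (2.91 ± 0.50, limma adjusted p = 0.0022) and lower in P3 than in P2 livers (-4.35 ± 0.50, limma adjusted p = 1.7e-05). In P3 against fed livers it was not called (-1.44 ± 0.50, limma adjusted p = 0.056). Serpina7 averaged 3.88 in P3 livers, below the array medians (4.34 to 4.46), and Serpina6 averaged 5.04, not far above them. The sizes of their falls are therefore uncertain.

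Among 20 other measured genes listed as positive acute phase proteins, 5 rose and 3 fell in P3 against fed livers (median 0.02). Without fed 2, P2 4 and P3 3 the counts were 3 and 4. Among the 5 that rose with all arrays is Il1r1, which encodes a receptor. With all arrays, 11.3% of all rows were called higher and 8.06% lower. Il1rn, which blocks the interleukin-1 receptor, rose by 3.52 ± 0.37, Hamp, the iron hormone hepcidin, by 2.01 ± 0.61, and Lbp, the lipopolysaccharide-binding protein, by 1.46 ± 0.24. C3, the central complement protein, fell by 1.65 ± 0.37. The fibrinogen chains Fga (-0.03 ± 0.14), Fgb (0.20 ± 0.11) and Fgg (-0.34 ± 0.20) were not called. Of 7 genes listed with the macroglobulin and inter-alpha-trypsin inhibitor families, 4 fell and 0 rose. The relatives among those that fell were Itih2, a sister heavy chain (-1.67 ± 0.31), and Pzp, a macroglobulin (-0.93 ± 0.23). The relatives Itih4 (-0.65 ± 0.23), A2ml1 (-0.68 ± 0.27) and Cd109 (0.13 ± 0.15) were not called. Itih4 is also counted among the acute phase proteins. The other genes that fell are partners and no relatives. They were Ambp, the precursor of the inhibitor's light chain bikunin (-0.57 ± 0.15), also counted among the carriers, and Lrp1 (-2.78 ± 0.20). Lrp1, the receptor that clears protease-bound alpha-2-macroglobulin, is also counted among the receptors below.

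**Figure D3:**
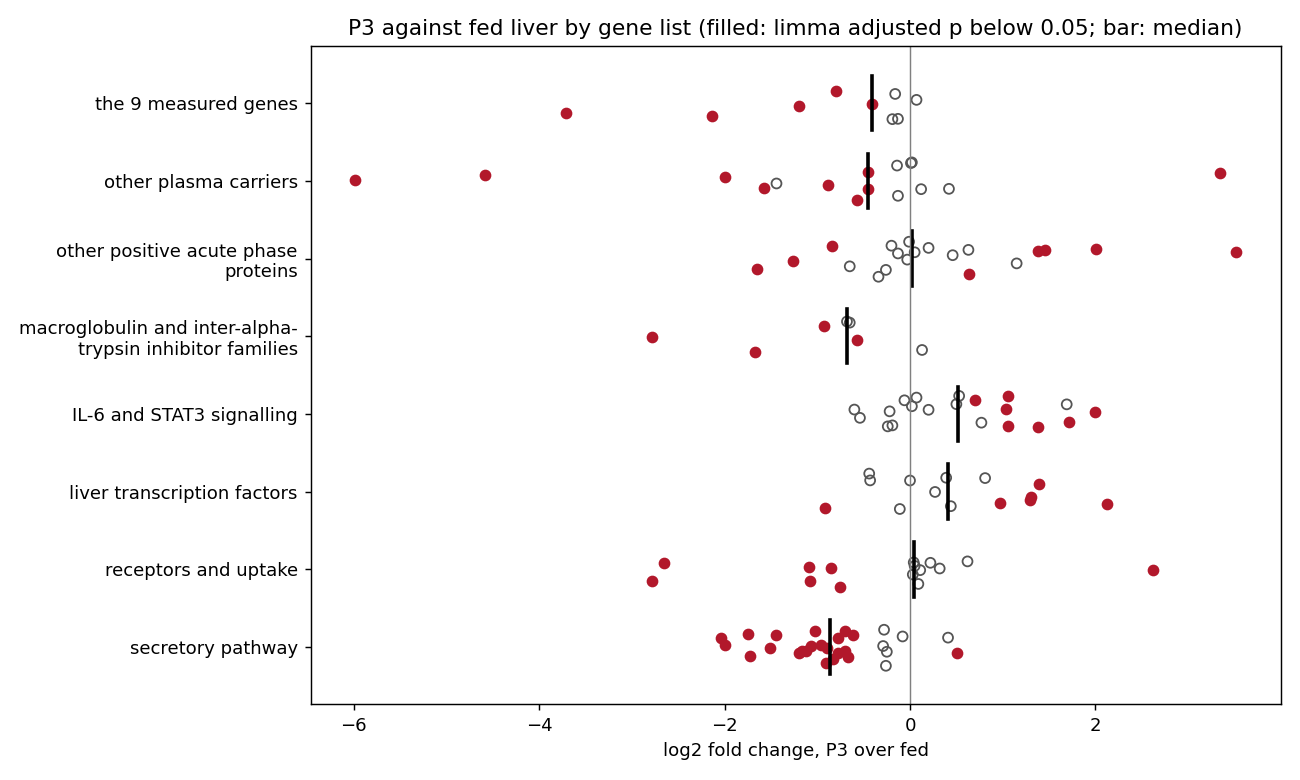
Log2 fold change of P3 over fed livers for the 9 genes and for 7 related lists (1 point per gene, filled where the limma adjusted p was below 0.05, black bar at the list median). Secretory pathway genes lie mostly left of 0 with a median of -0.86 and the list headed IL-6 and STAT3 signalling, which also holds interleukin-1, TNF and NF-kB genes, has a median of 0.52.

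Upstream of the reactants, 7 of 20 measured genes of a list of cytokine signalling genes (interleukin-6 and STAT3, with interleukin-1, TNF and NF-kB genes) rose and 0 fell in P3 against fed livers, with a median of 0.52 (9 rose and 0 fell without fed 2, P2 4 and P3 3). Of these 7, 4 belong to interleukin-6 type signalling: Il6r (1.71 ± 0.25) and Osmr (1.99 ± 0.32), the shared receptor chain Il6st (0.70 ± 0.19) and Stat3 (1.06 ± 0.23). The other 3, the interleukin-1 receptor Il1r1 (1.38 ± 0.22), its adaptor Myd88 (1.04 ± 0.18) and the NF-kB subunit Rela (1.06 ± 0.17), act in interleukin-1 and NF-kB signalling, and Il1r1 is also counted in the acute phase list above. Socs3, a feedback inhibitor induced by STAT3, was not called against fed (1.69 ± 0.58, limma adjusted p = 0.053) and was higher in P3 than in P2 livers (2.18 ± 0.58, limma adjusted p = 0.013). Il6 itself had 2.00 in P3 and 1.98 in fed livers, near the bottom of the scale. In P3r2 against P3 livers 8 of the 20 genes fell and 0 rose, and in P2 against fed livers 0 rose and 1 fell, Jak1 (-1.01 ± 0.26). The shares of all rows were 11.3% called higher in P3 against fed livers and 7.93% called lower in P3r2 against P3 livers. In P2 against fed livers 6.58% of all rows were called lower.

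Of 14 measured liver transcription factors, 5 rose and 1 fell in P3 against fed livers, and 7 rose and 2 fell without fed 2, P2 4 and P3 3. With all arrays, 11.3% of all rows were called higher and 8.06% lower. Cebpb, which drives acute phase genes, rose by 2.12 ± 0.14, and Cebpa, the C/EBP factor of the resting hepatocyte, fell by 0.92 ± 0.21. Hnf4a (0.00 ± 0.17) and Nr3c1 (0.39 ± 0.24), the glucocorticoid receptor, were not called. In P3r2 against P3 livers Cebpb fell by 1.72 ± 0.14 and Cebpa rose by 1.25 ± 0.21. In P3r2 against fed livers Dbp, a factor named for binding the albumin promoter and a clock output gene, was higher by 3.56 ± 0.28.

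The machinery that carries secreted proteins into and through the endoplasmic reticulum was lower at phase 3. Of 28 measured genes 21 fell and 1 rose in P3 against fed livers, with a median of -0.86, among them Pdia6 (-2.04 ± 0.14), Calr (-1.75 ± 0.16) and P4hb (-1.73 ± 0.11), which fold proteins. In P2 against fed livers 12 fell and 3 rose, with a median of -0.44. In P3r2 against P3 livers 24 rose and 0 fell, with a median of 1.07. Among all rows tested, 8.06% were called lower and 11.3% higher in P3 against fed livers. The shares were 6.58% lower in P2 against fed livers and 10.5% higher in P3r2 against P3 livers. Of the 15 measured receptors and uptake genes, 6 fell and 1 rose in P3 against fed livers. Hmox1, which breaks down heme, was the one that rose (2.62 ± 0.41), and Hfe, which takes part in iron sensing, fell by 2.65 ± 0.24, while Fcgrt, which recycles albumin, was not called (0.04 ± 0.13).

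Signals of other cell types were set beside these results. The summed level of 7 hepatocyte markers was 15.69 to 15.72 in P3 livers and 15.29 to 15.59 in fed livers, on a log2 scale. Of the 7, 3 were called higher and 1 lower, against 11.3% and 8.06% of all rows. Tat (1.28 ± 0.16), Cyp2e1 (0.63 ± 0.12) and Cps1 (0.42 ± 0.10) rose and Ahsg fell by 0.45 ± 0.09, while Apob (-0.84 ± 0.30), Serpina1 (-0.01 ± 0.09) and Fgb (0.20 ± 0.11) were not called. Ahsg is also counted among the carriers above, and Serpina1 and Fgb among the acute phase proteins, so the hepatocyte sum is not independent of those lists. The 10 Kupffer cell and macrophage markers summed to 11.24 to 11.88 in P3 and 10.69 to 11.84 in fed livers, with 2 of 10 called higher and 0 lower, and 0 higher and 2 lower without fed 2, P2 4 and P3 3. Of 6 neutrophil markers 0 were called, with sums of 6.30 to 6.72 in P3 and 6.36 to 6.77 in fed livers. The 3 measured endothelial markers summed to 10.73 to 11.28 in P3 and 9.60 to 10.63 in fed livers, with 1 of 3 called higher, and 0 of 3 without fed 2, P2 4 and P3 3. The red blood cell marker Hbb-b1 fell by 2.07 ± 0.49, while Slc4a1, the other measured marker of these cells, was not called (-0.29 ± 0.21). The 2 markers summed to 7.5 to 8.17 in P3 and 9.10 to 10.11 in fed livers. In this sum Hbb-b1 (9.52 in fed livers) outweighs Slc4a1 (5.9), so the sum mostly repeats Hbb-b1. Of 7 stellate cell and fibroblast markers 1 rose and 3 fell, of 3 bile duct and of 6 lymphocyte markers 0 were called, and the part of any of these in the results on plasma proteins was not tested.

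The span of each gene was set beside its range. The genes that varied most between groups, Afm, A2m and Cp, span 32.8, 49.7 and 58.8 kb and are the 3 longest of the 9, whereas the others span 1.9 to 15.5 kb. Across 8219 brighter rows the Spearman correlation of the P2 over fed change with gene length was -0.38, and that of the P3 over fed change was -0.08. It was 0.21 for P3 over P2, 0.04 for P3r2 over P3 and -0.1 for P3r2 over fed. The genes in these correlations are not independent replicates. After removal of the length trend per array, a setting chosen after seeing the data, Afm changed by -3.81, A2m and Ttr kept their calls, and 7 of the 9 genes were called lower in P3 against fed livers.

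Genes that followed Afm and A2m most closely over the 16 arrays were sought among 8248 other genes above the median signal. For Afm they were Slco1b2, a hepatocyte uptake transporter for organic anions (Pearson r = 0.991), Cat, catalase (0.986), and Mbl2, a mannose-binding lectin (0.984). In P3 3, where Afm was at 5.78, they stood at 5.42, 7.43 and 7.00, while their P3 means were 7.31, 9.29 and 8.85 and their fed means 11.29, 12.32 and 11.63. For A2m they were Fgr, a Src-family kinase (0.881), Slc16a13, a carrier of the monocarboxylate transporter family (0.871), and Map3k13, a kinase (0.868). The correlations carry the differences between the 4 groups and the low values of P3 3, so they describe likeness only.

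**Figure D4:**
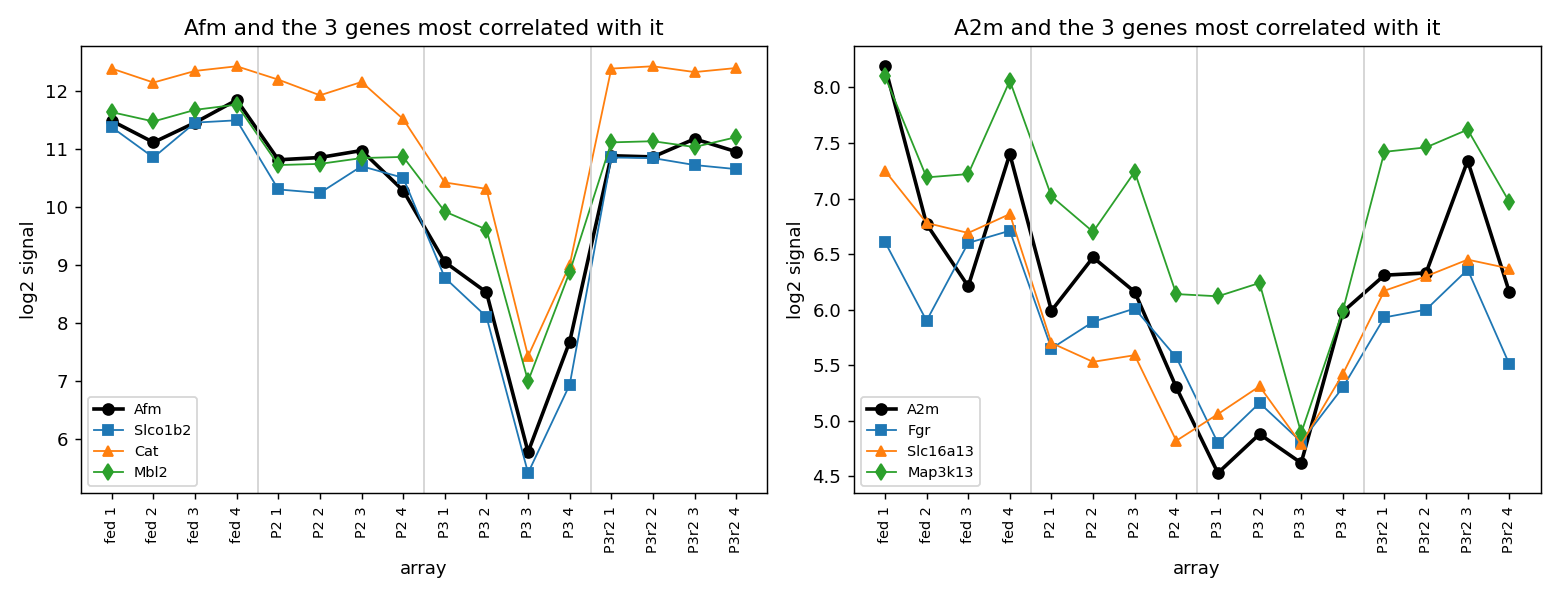
Log2 signal by array for Afm (left) and A2m (right) in black, each with the 3 genes of highest Pearson correlation over the 16 arrays. The Afm panel shows 4 genes with their lowest value in the array P3 3, where Afm was at 5.78.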

How the data were processed

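Liver RNA of 16 rats was measured on 1 array each, without technical replicates. The authors deposited log2 signals per transcript cluster, for which the submitters' processing notes and design text name GCOS 1.4 and Expression Console 1.1. The sources used here name no summarisation, background correction or genome build. Values were used as deposited. Of 19418 rows, 533 with identifiers below the annotated range were left out, and of the 18885 tested 13327 carry 1 gene symbol, 620 several and 4938 none. Groups come from the sample titles. A limma 3.58.1 model (R 4.3.3) with 1 mean for each group, fitted to all 16 arrays, gave 5 contrasts, tested two-sided with eBayes and adjusted by Benjamini-Hochberg over the tested rows. Precision is limited by 4 arrays per group. The fit was tested on simulated data with 50 rows changed per fold size in P3 against fed. It called 26% of 1.5-fold, 82% of 2-fold and 100% of 4-fold changes, so small changes can go uncalled. The simulated noise was independent, with 1 spread per row for all groups. Few rows were changed, whereas 19.3% of rows were called in P3 against fed livers in the data. The rates therefore need not carry over to these data. The members, gene lists, motifs and the rule for named genes were chosen with earlier results of these data known. The rule names all members, up to 4 called genes per list and comparison plus stated regulators, receptors, carriers and family members, and the 3 genes most correlated with each of the 2 members of widest range. The fibrinogen chains, Il6, S100a8, Hbb-b1, Slc4a1, Myd88, Rela and the hepatocyte markers were chosen for the text after their values were seen. There were 29 alternatives, of which 16 left out single arrays and 1 was added after seeing the data. Replicate numbers are not said to mark a shared animal or batch, and the arrays were not treated as pairs. Figures were drawn with matplotlib 3.10.9.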

Additional observations from a re-analysis of the deposited data

Results flagged for a closer look

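Dixon's ratio was taken for the 9 genes in each group, 36 groups of 4 arrays, and 7 had an array far from the others (past Dixon's 95% critical value), where chance gives about 1 group in 20. The low array fed 2 stood apart for Alb (13.15, nearest other array 13.33), Hpx (12.80, nearest 13.01) and Itih3 (12.42, nearest 12.65). P3 3 was low for Alb (12.98, nearest 13.15), and P2 4 was high for Ttr (13.39, nearest 13.29). These 3 arrays are those of narrow spread. In re-fed livers A2m was high in P3r2 3 (7.34, nearest 6.33) and Itih3 low in P3r2 4 (12.31, nearest 12.50).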

How the results depend on the processing

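Afm, Ttr and A2m in P3 against fed livers, Afm, Ttr and Alb in P3 against P2, and Afm and Ttr in P3r2 against P3 kept their direction and their call under all 29 settings. In P2 against fed livers the count of genes called was 1, and 0 after quantile normalization, after median centring, with the trend or robust option, with the replicate block, at a threshold of 0.01 and without the 3 arrays of narrow spread, while it was 2 over brighter rows only and with array spread as a covariate (0 to 1 with single arrays left out). In P3 against fed it was 5, 7 after quantile normalization or with the length trend taken out (both adding Alb and Hpx), and 3 with the 2 groups alone or at 0.01 (3 to 5 with single arrays left out). In P3 against P2 it was 3, and 5 after quantile normalization, 7 with array spread as a covariate and 6 with the length trend taken out (3 to 4 with single arrays left out). In P3r2 against P3 it was 5, 3 with the 2 groups alone, without the narrow arrays and with spread as a covariate, and 2 at 0.01 (2 to 5 with single arrays left out). In P3r2 against fed it was 0, and 1, Crp, without the narrow arrays and with spread as a covariate (0 to 0 with single arrays left out). The cause of these shifts was not tested, apart from the stricter threshold and the fits with fewer arrays.

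Of 24 same-numbered pairs of arrays, 6 had deviations from their group means that correlated above 0.1 (range -0.40 to 0.26). The differently numbered arrays P2 4 and P3 3 correlated at 0.31. Replicate numbers were not treated as pairs because the labels do not say what they mark. With the replicate block, Hp in P2 against fed (adjusted p = 0.087), Crp in P3 against fed (0.081) and Alb in P3r2 against P3 (0.078) were no longer called, and no other of the called changes of the 9 genes was lost. Uncalled changes near 0 turned sign under some settings. Hp in P3 against fed was -0.12 after quantile normalization, -0.05 without the narrow arrays, -0.08 with the length trend taken out and -0.02 to 0.15 with single arrays left out (negative without fed 2). Hp in P3r2 against P3 was 0.12 after quantile normalization and -0.11 to 0.01 with single arrays left out (positive without P3 2). Hp in P3r2 against fed was -0.01 after quantile normalization, -0.00 with array weights, -0.05 without the narrow arrays, -0.13 with the length trend taken out, and -0.05 to 0.08 with single arrays left out (negative without fed 2). Hpx in P2 against fed was -0.09 after quantile normalization and -0.02 with the length trend taken out, and in P3r2 against fed it was -0.03 with spread as a covariate, -0.12 with the length trend taken out -0.00 without the narrow arrays, and -0.00 to 0.08 with single arrays left out (lowest without fed 2). With the length trend taken out, Alb and Ttr in P3r2 against fed were -0.10 and -0.07. Crp in P3r2 against P3 was -0.01 with spread as a covariate. Itih3 in P3 against P2 was 0.01 after median centring or without the narrow arrays, 0.00 with array weights, and -0.13 to 0.07 with single arrays left out (positive without P2 1, P3 3 or P3 4). Itih3 in P3r2 against P3 was -0.03 with array weights, -0.09 without the narrow arrays, -0.10 with spread as a covariate, -0.01 with the length trend taken out, and -0.09 to 0.11 with single arrays left out (below 0 without P3 3, P3 4, P3r2 2 or P3r2 3). Alb, Ttr, Hp, Hpx, Crp and Itih3 averaged near the top of the scale, and whether this limits their changes was not tested.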
